A study of Mus musculus with 15 samples.

Results

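The genes that copy DNA were followed through the development of insulitis, the entry of immune cells into the pancreatic islets, in the NOD mouse. The genes were taken by name from the count table: 37 of the 48709 genes listed, covering origin recognition and licensing (10 genes), helicase activation (6), the related helicase Mcm8, polymerases and primase (7), the sliding clamp and its loaders (5), maturation of the lagging strand (2), nucleotide supply (3) and chromatin assembly behind the fork (3). All 37 passed the filter on low counts, which kept 16554 genes. RNA was sequenced from islets of 15 NOD/ShiLtJ females, 3 separate mice at each of 5 ages (4, 6, 8, 10 and 12 weeks), all untreated as far as the labels say. The NOD strain develops autoimmune diabetes spontaneously, and the study asked how islet transcripts change before the disease. Islets were separated on a density gradient after collagenase digestion and picked by hand, so a library holds the endocrine cells and whatever cells remained attached, and neither the labels nor the methods give a batch or date. All 12 endocrine markers were present in every library, with Chga, which encodes the granule protein chromogranin A, as the most abundant. Libraries held 25407492 to 41616275 counts (median 28004882), and mice of the same age differed by 15.9 to 127 times the sampling noise (chi-square per degree of freedom over genes).

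Before a cell divides, the origin recognition complex with Cdc6 and Cdt1 loads the ring of Mcm2 to Mcm7 onto DNA in G1 phase, a step called licensing. Mcm10, Cdc45 and the GINS complex then turn the ring into an active helicase, and polymerases alpha, delta and epsilon copy the strands while the Pcna clamp, put on by clamp loaders, holds them in place. Most of these genes are transcribed around the G1/S transition under E2F factors, so their transcripts mark cells that are about to divide. In mouse islets, endocrine cells replicate in early life and less with age, and lymphocytes that meet their antigen also divide.

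Replication transcripts were high in 4-week-old islets, low at 6 weeks, uneven at 8 weeks and high again at 10 and 12 weeks. Averaged over the 37 genes, the level was 3.51 ± 0.07 log2 CPM at 4 weeks (SD, n = 3 mice, CPM being counts scaled to a common library size), 2.72 ± 0.13 at 6, 2.80 ± 0.41 at 8, 3.61 ± 0.34 at 10 and 3.58 ± 0.19 at 12 weeks. The mice gave 3.46, 3.47 and 3.59 at 4 weeks against 2.64, 2.66 and 2.86 at 6 weeks, so these ages did not overlap. At 8 weeks the mice stood at 2.34, 2.94 and 3.12, with replicate 1 the lowest of all 15 libraries. The older mice gave 3.83, 3.77 and 3.21 at 10 weeks and 3.67, 3.36 and 3.70 at 12 weeks. In the edgeR quasi-likelihood fit of all 5 ages, 33 of the 37 genes changed over age (Benjamini-Hochberg adjusted p under 0.05), where 56% of all genes tested did. The exceptions were Gins3, Gins4, Rfc3 and Pola1. In these bulk samples fewer dividing cells and less RNA per dividing cell cannot be told apart.

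**Figure D1:**
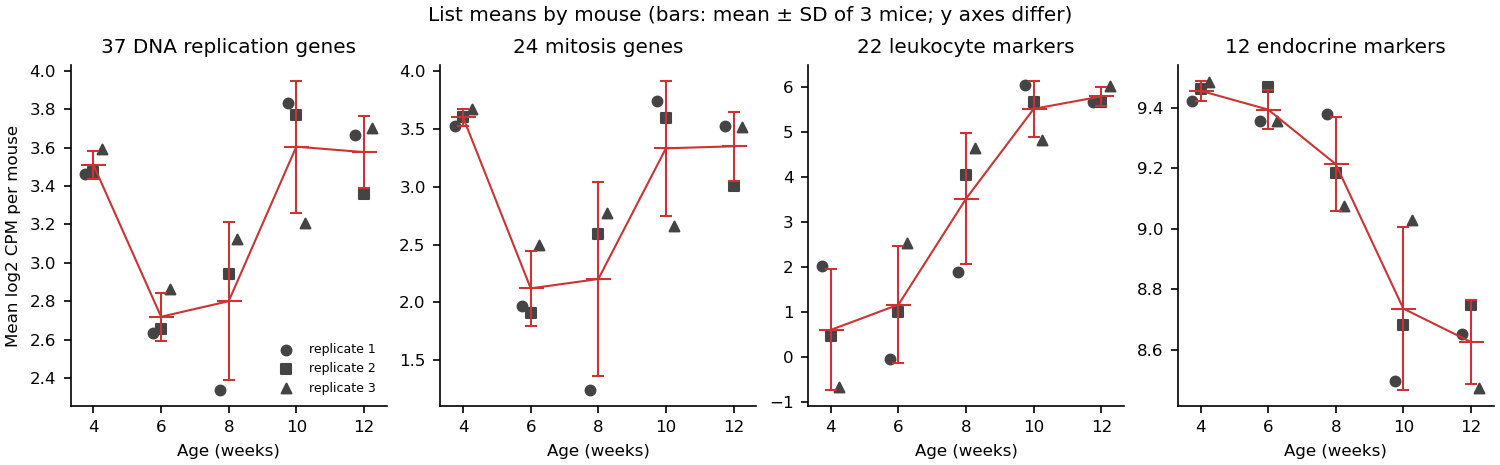
Mean log2 CPM of 4 gene lists in each mouse (points, marked by replicate number) against age in weeks, with the mean and SD of 3 mice per age in red. The replication and mitosis lists are low at 6 weeks and high again at 10 and 12 weeks, the leukocyte markers climb from 8 weeks on and the endocrine markers decline, and the y axes differ between the panels.

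Between 4 and 6 weeks every replication gene had a lower fitted level. The median log2 fold change was -0.74 over the 37 genes (range -2.17 to -0.09) and 0.01 over all genes tested. At the threshold that the study used for its DEGs, a fold change of at least 1.5 with an unadjusted p under 0.05, 23 of the 37 were downregulated, where 1.75% of all genes were. An unadjusted p under 0.05 alone was met by 31 genes against 4.87% of all genes, and in 33 genes each 6-week-old mouse was below each 4-week-old one, against 9.28%. After adjustment over all genes the edgeR fit called 1 of the 37, Dscc1, where it called 0.0846% of all genes lower. That count depended on the test: it was 15 with DESeq2 as well as with only these 2 ages in the edgeR fit, 24 with the edgeR exact test and 0 when any one of the 6 mice was left out. Of all genes, in both directions, 15 were called in the fit of 5 ages, 249 with DESeq2, 141 with the 2 ages alone, 265 with the exact test and 0 to 6 with a mouse left out. The 3 other tests shared 10 genes, namely Mcm2, Mcm3, Mcm5, Mcm6, Pole, Pcna, Dscc1, Lig1, Rrm1 and Chaf1a.

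**Figure D2:**
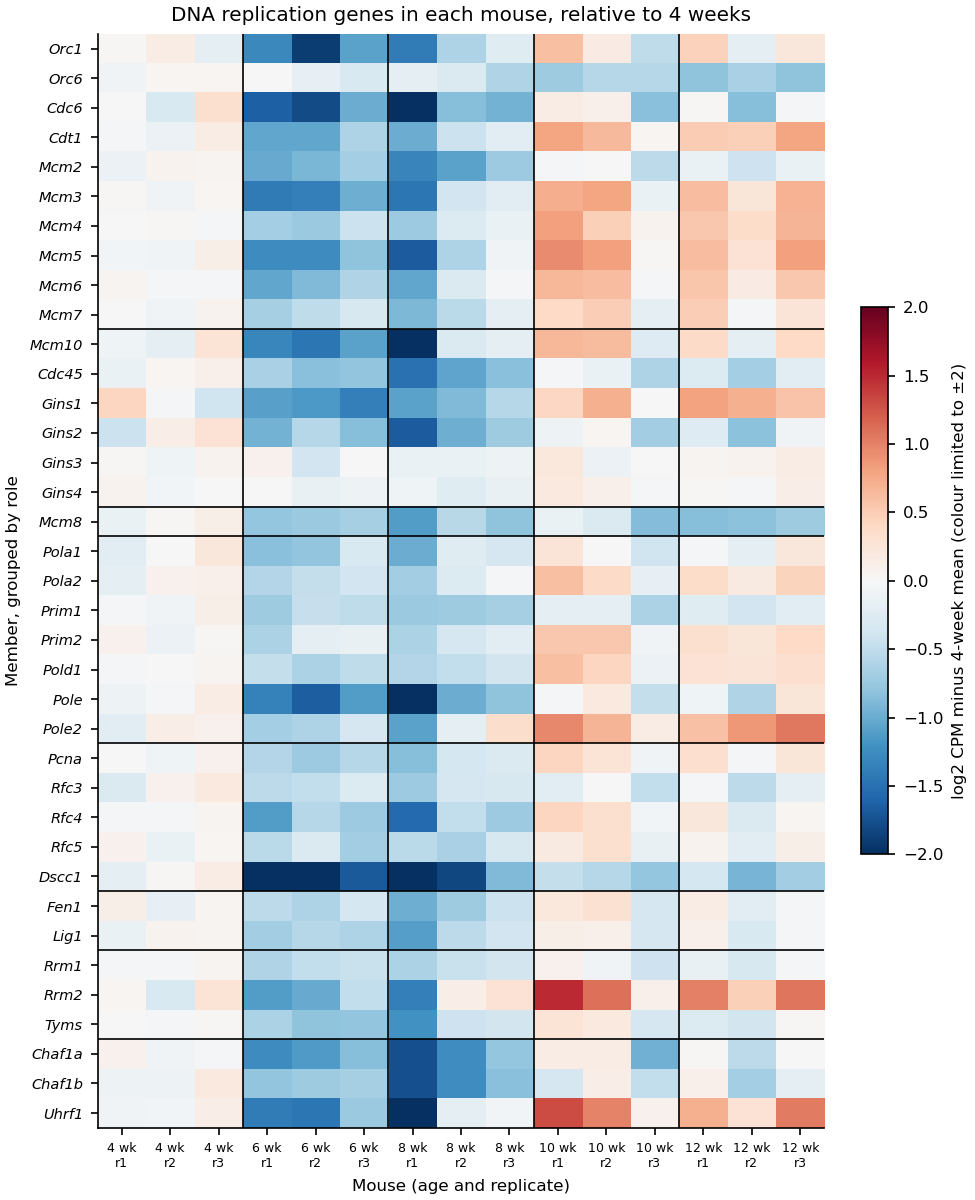
Each row is a replication gene, grouped by role, and each column a mouse, with color giving log2 CPM minus the 4-week mean of that gene (limited to ±2). The 6-week columns and the first 8-week column are blue for nearly every gene, many genes are red in the first 2 columns of 10 weeks and the first and last of 12 weeks, and Orc6 is palest at 4 weeks and bluest at 12.

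Of these genes, 30 had a promoter in the RefSeq table (GRCm38.p6), a window from 250 bases before the first transcribed base to 50 bases after it. The E2F-type words TTTCGCGC, TTTGGCGC, TTTCCCGC and TTTGCCGC were searched on both strands. They were searched because E2F factors bind such words and every replication gene had a lower fitted level at 6 than at 4 weeks. At least 1 word was present in 15 of the 30 promoters (50%), in 704 of 27025 promoters of all genes (2.6%), in 8 of 38 of the other replication genes described further on (21.1%) and in 1 of 20 of a list of mitosis genes (5%). Windows of 30 bases around a match upstream of the start are shown for 5 genes whose levels differed widely between ages, on the strand of the gene from 5′ to 3′, with the matching word or its reverse complement in capitals. In Mcm5 and Mcm6 a further match on the other strand overlaps the one shown.
Orc1 (chr4:108579416-108579445, plus strand): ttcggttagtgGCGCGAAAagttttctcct
Cdc6 (chr11:98908002-98908031, plus strand): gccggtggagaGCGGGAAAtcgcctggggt
Mcm5 (chr8:75109345-75109374, plus strand): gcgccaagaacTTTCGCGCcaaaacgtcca
Mcm6 (chr1:128359797-128359826, minus strand): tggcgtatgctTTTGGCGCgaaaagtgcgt
Uhrf1 (chr17:56304117-56304146, plus strand): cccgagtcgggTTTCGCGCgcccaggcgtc
The capitals begin 27 bases before the start in Orc1, 138 in Cdc6, 153 in Mcm5, 110 in Mcm6 and 185 in Uhrf1. Matches were also present in Cdt1, Mcm3, Mcm7, Gins3, Mcm8, Pola1, Pold1, Pole2, Rfc3 and Lig1. Of these, Gins3, Pola1 and Rfc3 were among the genes not called over the 5 ages. Promoters without a match included those of Mcm2, Mcm10, Pcna, Rrm1 and Chaf1a, all lower at 6 weeks. A relation between matches and levels was not tested. The RefSeq start is not always the gene start in the count table. A match is a run of letters in the window, and no binding was measured.

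Among the licensing genes, 8 of 10 were downregulated at the study's threshold between 4 and 6 weeks, where 1.75% of all genes were. Their median log2 fold change was -0.89. Orc1 (chromosome 4, 108579423 to 108614833, GRCm38), the large subunit of the origin recognition complex that is made anew in each G1 phase, gave 1.09, 1.20 and 0.941 CPM at 4 weeks and 0.396, 0.237 and 0.473 CPM at 6 weeks. That log2 fold change of -1.56 (SE 0.40) was the widest of the group, from a scarce transcript with 398 counts over all 15 libraries, and had an adjusted p of 0.181 in edgeR. At 8 weeks Orc1 gave 0.365, 0.678 and 0.893 CPM, at 10 weeks 1.67, 1.21 and 0.731 CPM and at 12 weeks 1.49, 0.936 and 1.26 CPM. All 3 of the 12-week-old mice were above all 6-week-old ones, and the rise of 1.75 (SE 0.40) at 12 against 6 weeks passed the edgeR test (adjusted p 0.00314). The partner subunit Orc6 (chromosome 8, 85299632 to 85308278) behaved otherwise. It gave 33.4, 35.7 and 35.7 CPM at 4 weeks, 34.9, 31.3 and 28.2 CPM at 6, 30.8, 28.7 and 23.1 CPM at 8, 21.2, 23.5 and 23.4 CPM at 10 and 19.9, 22.4 and 19.9 CPM at 12 weeks. The 4- and 6-week-old mice overlapped, while the 12-week-old mice were below both, with a fall of 0.60 log2 units from 6 weeks (adjusted p 0.000848) and of 0.75 from 4 weeks (adjusted p 0.000305, edgeR). Orc6 shares 171 bases with Vps35, which lies on the other strand and held 118541 counts over the series against 11938 for Orc6. The strand setting of the counting is not given in the sources used here.

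Mcm3 (chromosome 1, 20802968 to 20820312), a subunit of the licensed ring, had the largest return of the group. Its levels were 25.6, 24.03 and 25.9 CPM at 4 weeks and 9.39, 9.71 and 12.7 CPM at 6 weeks, with no overlap. By 8 weeks it gave 9.16, 19.3 and 21.5 CPM, and it reached 41.7, 43.6 and 22.9 CPM at 10 and 38.7, 29.7 and 40.99 CPM at 12 weeks. The log2 fold change was -1.25 (SE 0.30) at 6 against 4 weeks (adjusted p 0.148) and 1.78 (SE 0.30) at 12 against 6 weeks (adjusted p 0.000648, edgeR). The other ring subunits Mcm2, Mcm4, Mcm5, Mcm6 and Mcm7 were lower at 6 weeks by log2 fold changes of -0.87, -0.61, -1.10, -0.83 and -0.49, and all rose between 6 and 12 weeks by 0.64, 1.15, 1.70, 1.26 and 0.75. Cdc6 and Cdt1, which bring the ring to the origin, moved by -1.49 and -0.91 and then by 1.23 and 1.505. All 9 licensing genes other than Orc6 passed the edgeR test at 12 against 6 weeks, upward, where 27% of all genes did.

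The genes that activate the helicase were divided. Mcm10, which starts the opening of origins, gave 3.89, 3.59 and 4.99 CPM at 4 weeks, 1.62, 1.47 and 1.93 CPM at 6, 0.948, 3.35 and 3.61 CPM at 8, 6.55, 6.43 and 3.42 CPM at 10 and 5.38, 3.64 and 5.47 CPM at 12 weeks. Its 6-week-old mice lay below all 4-week-old ones (-1.31, SE 0.41, adjusted p 0.289) and its 12-week-old mice above all 6-week-old ones (1.53, SE 0.41, adjusted p 0.00708, edgeR). Gins1 (chromosome 2, 150905400 to 150931280), a GINS subunit, gave 2.51, 1.80 and 1.38 CPM at 4 weeks, 0.832, 0.789 and 0.670 CPM at 6, 0.839, 0.963 and 1.21 CPM at 8, 2.46, 3.07 and 1.83 CPM at 10 and 3.27, 3.04 and 2.77 CPM at 12 weeks. The rise of 1.98 (SE 0.27) from 6 to 12 weeks was the largest of the 37 genes (adjusted p 0.000396, edgeR). Gins4, by contrast, gave 14.8, 13.5 and 14.04 CPM at 4 weeks, 14.1, 12.7 and 13.1 CPM at 6, 13.3, 11.9 and 12.7 CPM at 8, 16.2, 15.1 and 13.9 CPM at 10 and 14.4, 13.8 and 15.5 CPM at 12 weeks. All its ages but 8 and 10 weeks overlapped their neighbors. Its log2 fold changes of -0.09 and 0.13 missed the test (adjusted p 0.889 and 0.218, edgeR), as did those of Gins3, at -0.09 and 0.18. At 12 against 6 weeks the alternative settings and left-out mice gave 0.0826 to 0.371 for Gins4 and 0.0496 to 0.422 for Gins3. Each of these genes was called in some of those fits. Cdc45 and Gins2 were lower at 6 weeks (-0.77 and -0.81) and did not pass the edgeR test at 12 against 6 weeks (0.38 and 0.43). Over the same alternatives Cdc45 ranged from 0.0543 to 0.628 at 12 against 6 weeks and was called in some fits. Gins2 ranged from 0.0640 to 0.679 and was called in none.

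Mcm8, a helicase that serves recombination and not licensing, stood lower at 6 weeks and was again near that level at 12 weeks. It gave 4.30, 4.79 and 5.14 CPM at 4 weeks, 2.73, 2.82 and 2.96 CPM at 6, 2.15, 3.21 and 2.68 CPM at 8, 4.31, 3.84 and 2.56 CPM at 10 and 2.59, 2.64 and 2.86 CPM at 12 weeks. The 12-week-old mice overlapped the 6-week-old ones (-0.07, SE 0.20, adjusted p 0.778, with the sign reversed at 0.17 under library totals) and were all below the 4-week-old ones, a fall of 0.81 (adjusted p 0.00433, edgeR).

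All 7 genes of the polymerases and primase were without overlap lower at 6 than at 4 weeks, where 9.28% of all genes were. Pole and Pola1, 2 of the 7, were downregulated at the study's threshold, where 1.75% of all genes were. Pole, the catalytic subunit of the leading-strand polymerase epsilon, gave 9.36, 9.75 and 11.2 CPM at 4 weeks, 3.88, 3.16 and 4.61 CPM at 6, 2.04, 5.03 and 5.71 CPM at 8, 9.95, 11.5 and 7.18 CPM at 10 and 9.46, 6.59 and 11.98 CPM at 12 weeks. Its changes were -1.38 (SE 0.33, adjusted p 0.148) and 1.27 (SE 0.33, adjusted p 0.00622, edgeR). Prim2, the large primase subunit, had the smallest early change, -0.31 (SE 0.18), from 7.97, 6.93 and 7.67 CPM to 4.83, 6.55 and 6.78 CPM. It then gave 4.82, 5.96 and 6.43 CPM at 8, 10.96, 10.9 and 7.15 CPM at 10 and 9.40, 8.93 and 9.90 CPM at 12 weeks, where every mouse was above every 6-week-old one (0.63, adjusted p 0.0101). Pole2, the accessory subunit of polymerase epsilon, gave 1.76, 2.27 and 2.21 CPM at 4 weeks, 1.27, 1.32 and 1.62 CPM at 6, 0.948, 1.82 and 2.64 CPM at 8, 4.09, 3.34 and 2.29 CPM at 10 and 3.14, 3.81 and 4.37 CPM at 12 weeks. The 12-week-old mice exceeded the 4-week-old ones as well as the 6-week-old ones, by 0.86 and 1.43 (adjusted p 0.0344 and 0.00279, edgeR).

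Dscc1 (chromosome 15, 55076099 to 55090491), a subunit of the alternative clamp loader that joins sister chromatid cohesion to replication, had the strongest early change. It gave 2.13, 2.48 and 2.71 CPM at 4 weeks and 0.357, 0.553 and 0.709 CPM at 6 weeks, a 4.49-fold fall (-2.17, SE 0.35, adjusted p 0.0466, edgeR). Values of 0.474, 0.642 and 1.29 CPM followed at 8 weeks, 1.74, 1.61 and 1.40 CPM at 10 and 1.88, 1.24 and 1.48 CPM at 12 weeks. All 3 of the 12-week-old mice lay above the 6-week-old ones (1.496, SE 0.35, adjusted p 0.00354) and below the 4-week-old ones (-0.67, SE 0.32, adjusted p 0.0973). Rfc3, a subunit of the main clamp loader, moved least in this group. Its values were 9.66, 12.5 and 13.5 CPM at 4 weeks, 8.16, 8.37 and 9.70 CPM at 6, 7.08, 9.34 and 9.43 CPM at 8, 10.1, 11.7 and 8.31 CPM at 10 and 11.4, 8.16 and 10.3 CPM at 12 weeks, neighboring ages overlapped, and neither -0.44 nor 0.19 passed the test. Pcna itself, Rfc4 and Rfc5 rose between 6 and 12 weeks by 0.82, 0.80 and 0.50.

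Fen1, the flap nuclease, and Lig1, the ligase that seals lagging-strand fragments, ran a similar course. Fen1 gave 19.6, 16.03 and 18.6 CPM at 4 weeks, 12.6, 11.7 and 14.2 CPM at 6, 9.16, 11.02 and 13.3 CPM at 8, 20.8, 22.2 and 14.3 CPM at 10 and 20, 15.7 and 17.7 CPM at 12 weeks. Lig1 gave 22.3, 25.6 and 25.3 CPM at 4 weeks, 15.1, 16.4 and 15.8 CPM at 6, 11.3, 17.01 and 18.6 CPM at 8, 26.5, 26.02 and 19.4 CPM at 10 and 26.3, 19.8 and 24.02 CPM at 12 weeks. In both, the 6-week-old mice were below all 4-week-old and all 12-week-old mice. The log2 fold changes at 6 against 4 weeks were -0.50 and -0.63, without an adjusted p under 0.05, and the increases at 12 against 6 weeks were 0.47 and 0.57 (adjusted p 0.0356 and 0.0148, edgeR).

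In nucleotide supply, the 2 subunits of ribonucleotide reductase were both measured. Rrm2, the small subunit whose amount sets the activity of the enzyme in S phase, gave 11.8, 9.36 and 13.9 CPM at 4 weeks, 5.31, 5.74 and 8.16 CPM at 6, 4.45, 12.7 and 14.2 CPM at 8, 32.8, 24.9 and 12.4 CPM at 10 and 23.3, 16.1 and 24.4 CPM at 12 weeks. Rrm1, the large subunit, gave 47.98, 48.8 and 51.5 CPM at 4 weeks, 32.6, 35.1 and 36.2 CPM at 6, 31.9, 36.1 and 38.3 CPM at 8, 52.3, 47.2 and 36.99 CPM at 10 and 44.7, 39.7 and 48.3 CPM at 12 weeks. From 6 to 12 weeks Rrm2 rose by 1.74 (SE 0.41, adjusted p 0.00387) and Rrm1 by 0.35 (SE 0.12, adjusted p 0.0207, edgeR). The early changes were -0.87 and -0.51, the mice of 10 weeks spread widely for Rrm2, and the difference between the subunits was not tested. Tyms, which makes thymidylate, moved by -0.74 and then rose by 0.55.

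Uhrf1 (chromosome 17, 56303321 to 56323486), which reads hemimethylated DNA behind the fork and recruits the maintenance methyltransferase Dnmt1, gave 13.3, 13.4 and 15.2 CPM at 4 weeks, 5.27, 5.10 and 8.28 CPM at 6, 3.47, 12.3 and 13.5 CPM at 8, 34.5, 27.7 and 14.8 CPM at 10 and 22.9, 17.2 and 28.6 CPM at 12 weeks. Its changes were -1.17 (SE 0.43) at 6 against 4 weeks (adjusted p 0.414) and 1.88 (SE 0.43) at 12 against 6 weeks (adjusted p 0.00318, edgeR). Chaf1b, a subunit of the chromatin assembly factor that deposits new histones, gave 6.25, 6.24 and 7.67 CPM at 4 weeks, 3.84, 4.05 and 4.22 CPM at 6, 1.93, 2.78 and 3.71 CPM at 8, 5.28, 7.34 and 4.72 CPM at 10 and 7.16, 4.15 and 5.82 CPM at 12 weeks. At 6 weeks it was without overlap below 4 weeks (-0.74) and at 8 weeks without overlap below 6 weeks (-0.52). Its change of 0.50 at 12 against 6 weeks missed the test (adjusted p 0.106, edgeR). Over the alternative settings and left-out mice that change ranged from 0.0562 to 0.741, and some of those fits called it.

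**Figure D3:**
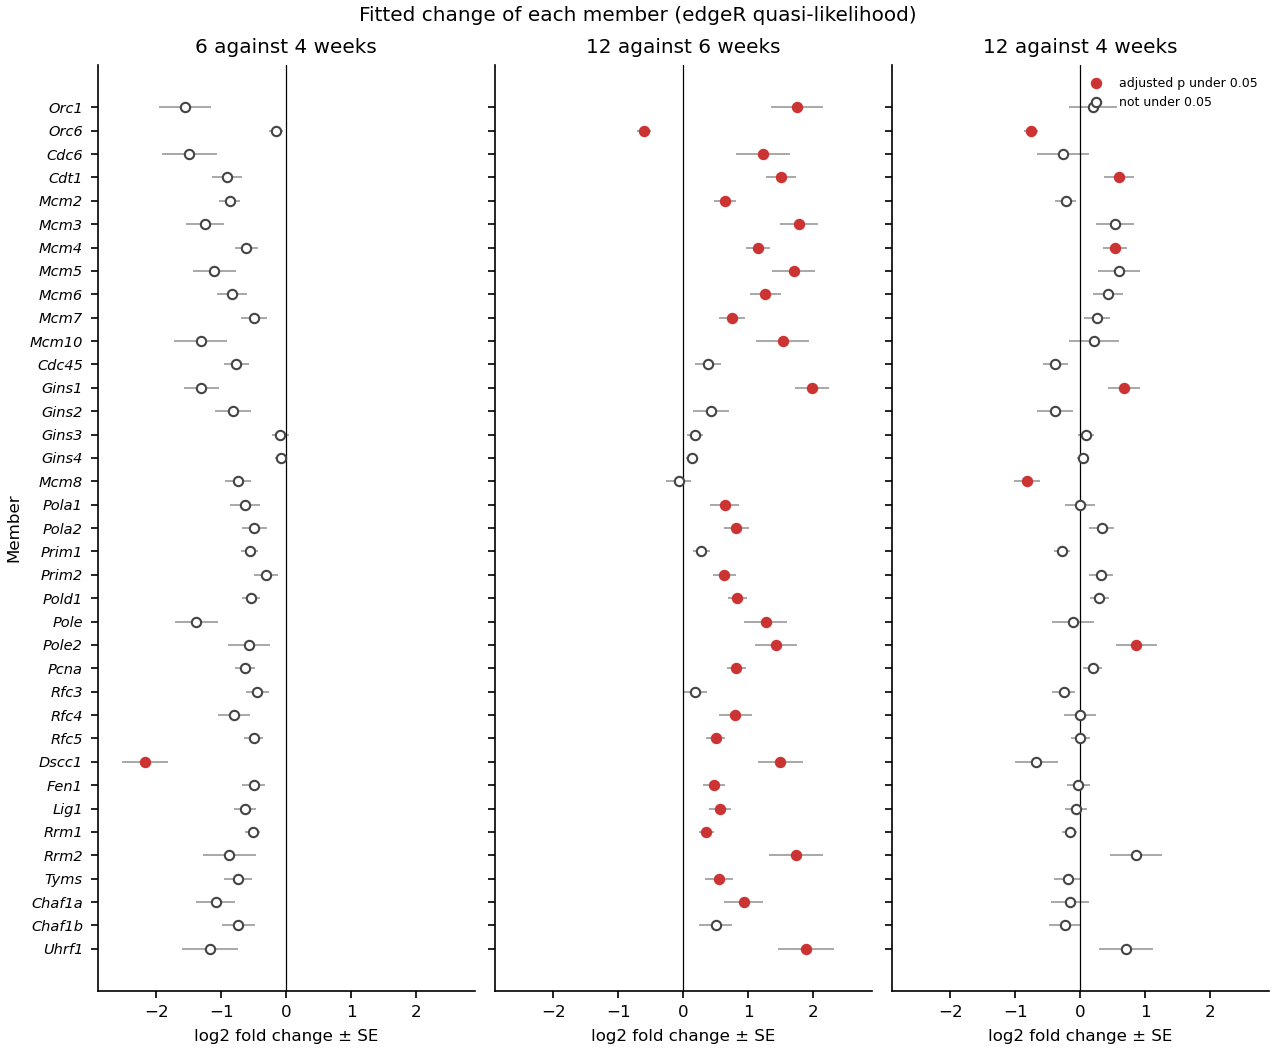
Fitted log2 fold change and SE of each replication gene in the edgeR quasi-likelihood fit, for 6 against 4, 12 against 6 and 12 against 4 weeks, filled where the adjusted p was under 0.05. All points lie below 0 in the left panel with only Dscc1 filled, 35 of 37 lie above 0 in the middle panel, and they lie on both sides of 0 in the right panel.

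At 8 weeks the genes stood at no common level. Against 6 weeks 16 were lower and 21 higher, with a median of 0.06 against -0.01 over all genes tested, and the edgeR fit called 0 of the 37, as it called 0% of all genes. That split depended on the fit, since library totals gave 8 lower and 29 higher (median 0.17) and the leukocyte covariate described further on gave 34 lower and 3 higher (median -0.20). DESeq2 and the edgeR exact test also called 0 of them, with 543 and 160 of all genes, and an unadjusted p under 0.05 was reached upward by Mcm3 alone (0.65), where 10.9% of all genes did so. Cdc45 and Chaf1b were lower without overlap (11.7% of all genes) and Gins1 was higher (7.62%). The mice of this age differed from one another. Replicate 1 was the lowest of all 15 mice in 27 of the 37 genes and the lowest of its age in 34. Replicates 2 and 3 were both above all 6-week-old mice in 17 genes and both below all 4-week-old mice in 31. Shares of all genes were not computed for these counts of single mice, which describe only the 37 genes. Without replicate 1, Mcm3 was called at 8 against 6 weeks (0.94, adjusted p 0.0437, edgeR), 1 of the 37 where 906 of all 16554 genes were called.

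Between 8 and 10 weeks 36 genes had a higher level, with a median of 0.84 (range -0.28 to 1.40) against -0.0050 over all genes tested. The edgeR fit called 23 of them higher, where 8.4% of all genes were, 29 were upregulated at the study's threshold (11.1% of all genes) and 24 did not overlap (17.2%). The largest changes were those of Uhrf1 (1.40, adjusted p 0.043), Mcm5 (1.30, adjusted p 0.0298) and Gins1 (1.28, adjusted p 0.0236). The adjusted calls rested on single mice: 0 remained without 8-week replicate 1 or 2 or 10-week replicate 1 or 2, 28 (27 higher and Orc6 lower) were made without 8-week replicate 3 and 33 higher without 10-week replicate 3. The calls among all genes moved with them, from 2776 to 0 in each of the first 4 cases and to 3535 and 5697 in the others. DESeq2 called 31 of the 37 higher (4096 of all genes), and DESeq2 size factors and library totals in the edgeR fit gave 25 each (2765 and 2319 of all genes). The exact test called only Gins1 (148 of all genes), and a fit of these 2 ages alone called 0 of the 37 and 0 of all genes. Replicate 3 of the 10-week-old mice was the lowest of its age in 35 genes, and replicates 1 and 2 were both above every 4-week-old mouse in 22. For these counts too the share of all genes was not computed. Between 10 and 12 weeks the median was -0.04, against -0.0020 over all genes tested, and 0 genes were called by edgeR, as were 0% of all genes, with 0 at an unadjusted p under 0.05 (3.99% of all genes lower and 3.53% higher at it) and 0 by DESeq2 or the exact test.

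Over the whole later interval, from 6 to 12 weeks, 35 genes were higher and 2 lower, with a median of 0.80 (range -0.60 to 1.98). The edgeR fit called 28 higher, near the top Gins1, Uhrf1, Mcm3, Orc1 and Rrm2, where 27% of all genes were called higher, and Orc6 lower, where 28.1% were. The median over all genes tested was -0.04. Without overlap were 29 genes higher (30.1% of all genes) and 1 lower (32.8%), and 23 were upregulated at the study's threshold (21.3%). Leaving out single mice gave 22 to 30 calls. Scaling to library totals, which moves the all-gene median by 0.24, changed this: 33 genes were called higher (8531 of all genes in either direction, against 9127) and the median of the 37 was 1.05.

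At 12 against 4 weeks the genes lay on both sides of their starting level, with 17 lower, 20 higher and a median of 0.0039 (range -0.81 to 0.86), against -0.05 over all genes tested. The edgeR fit called Orc6 and Mcm8 lower, where 27.2% of all genes were, and 4 genes higher, where 26.3% were. Those 4 were Pole2 (0.86, SE 0.31), Gins1 (0.68, SE 0.25), Cdt1 (0.60, SE 0.22) and Mcm4 (0.54, SE 0.18), with adjusted p of 0.0344, 0.0366, 0.0382 and 0.0227. Without overlap, 12 genes were higher (30.3% of all genes) and 6 lower (33.9%). Cdt1 gave 6.44, 6.07 and 7.31 CPM at 4 weeks and 9.43, 9.16 and 11.4 CPM at 12 weeks, and Mcm4 gave 26.2, 26.6 and 25.7 CPM and 38.1, 33.6 and 42.03 CPM, so neither overlapped. This comparison depended on scaling and on single mice. Library totals, which shift the median of all genes by 0.245, gave a median of 0.25 with 29 genes higher and 10 called higher, with 8376 of all genes called in either direction. Of the 4 upward calls 0 remained without 4-week replicate 2, 4-week replicate 3 or 12-week replicate 3, while a fit of the 2 ages alone and the exact test each called 12 higher, with 8261 and 7909 of all genes called in either direction against 8858 in the fit of 5 ages.

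Levels between genes were compared in TPM, which accounts for gene length and was scaled by the authors to the same sum in each library. Pcna was the most abundant at every age, at 37.9 ± 3.04 TPM at 4 weeks, 24.7 ± 1.94 at 6 and 56.7 ± 8.33 at 12 weeks (mean and SD, n = 3). Orc6 came next at 4 and 6 weeks, at 27.2 ± 0.371 and 24.6 ± 2.46 TPM, while the ring subunits Mcm2 to Mcm7 spanned 10.9 to 17.8 TPM at 4 weeks and 5.11 to 9.88 at 6 weeks. By 12 weeks 6 genes besides Pcna had higher means than Orc6, at 21.1 ± 1.48, from Mcm6, at 29.8 ± 5.25, Gins4, at 27.2 ± 3.28, and Mcm4, at 26.7 ± 4.47, through Mcm3 to Rrm1, at 22.2 ± 3.39, and Mcm5, at 21.6 ± 5.12, the last 3 within their SD of it. At the low end were Orc1, at 0.593 ± 0.0676 and 0.206 ± 0.0705 TPM at 4 and 6 weeks, Mcm10, at 1.04 ± 0.187 and 0.422 ± 0.0668, and Dscc1, at 1.06 ± 0.103 and 0.236 ± 0.0800. TPM does not carry the TMM factors, and the 12-week TPM stood higher against 4 weeks than the fitted levels did.

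**Figure D4:**
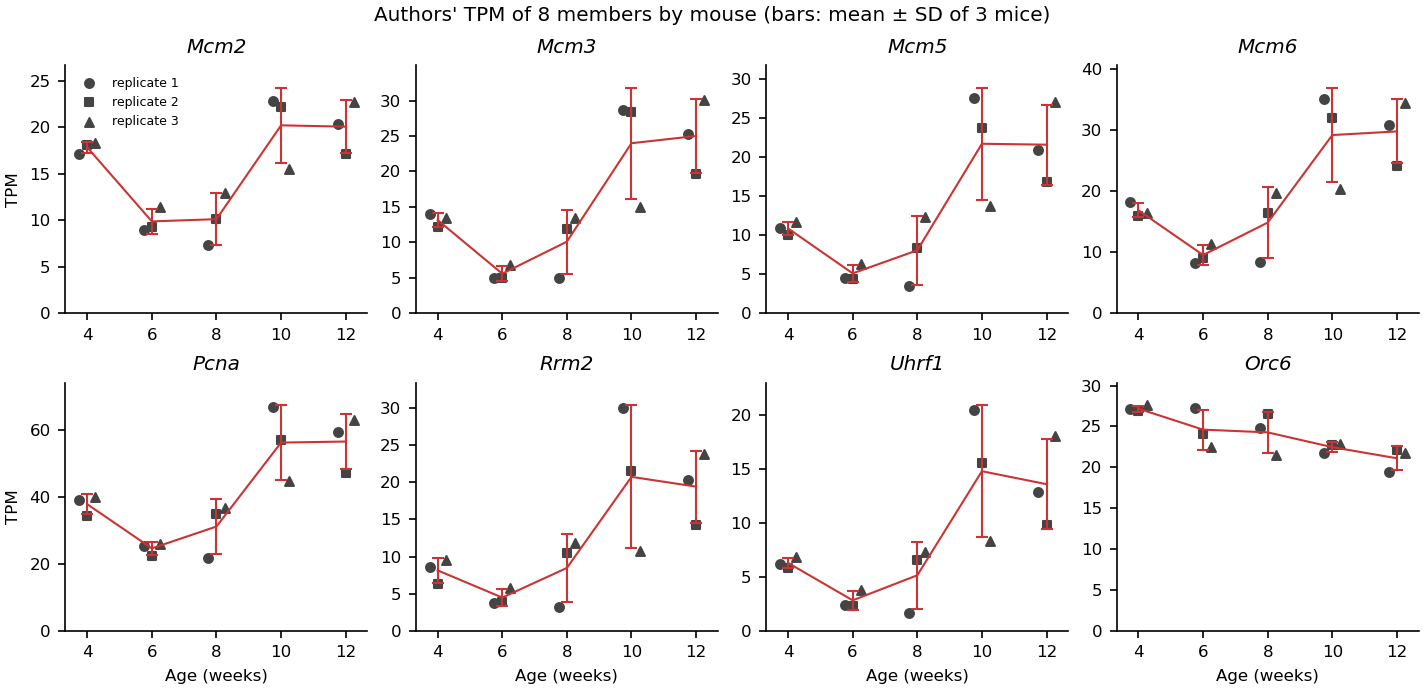
TPM from the deposited table for 8 replication genes in each mouse (points) against age in weeks, with mean and SD of 3 mice in red, each panel with its own axis from 0. Orc6 declines slowly from 27.2 to 21.1 TPM, while the other 7 dip at 6 weeks and exceed their 4-week TPM at 12 weeks.

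Leukocyte markers also rose between 6 and 12 weeks. Of 22 markers in the table (T cell, B cell and myeloid genes), 0 were called at 6 against 4 weeks, 0 at 8 against 6, 7 at 10 against 8 and all 22 at 12 against 6 weeks, upward. The share of all genes called higher was 0.00604% at 6 against 4 weeks, 0% at 8 against 6, 8.4% at 10 against 8 and 27% at 12 against 6 weeks. At the first 2 comparisons the fit thus called almost no gene of any kind higher. At the study's threshold 19 of them were upregulated at 8 against 6 weeks, where 8.4% of all genes were, with a median of 2.61, while the replication genes had a median of 0.06 and only Mcm3 past that threshold, though 8-week replicate 1 had a leukocyte mean within the range of the younger mice and the difference in timing was not tested. At 10 against 8 weeks 10 leukocyte markers passed it upward, where 11.1% of all genes did, with a median of 1.70. Their summed level was 241, 81.7 and 49.2 CPM in the 4-week-old mice, 71.0, 123 and 272 at 6 weeks, 178, 702 and 1008 at 8 weeks, 2488, 1840 and 1045 at 10 weeks and 2043, 2129 and 2432 at 12 weeks. Lyz2, a lysozyme of myeloid cells, was the most abundant in every mouse, and 5 of the 22 markers were at 0 in 4-week replicate 3. Endocrine markers went the other way, summing to 24470 to 25560 CPM at 4 weeks and 12140 to 15110 at 12 weeks. At 12 against 6 weeks 11 of 12 were called lower, where 28.1% of all genes were.

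The early decrease of the replication genes was also set beside the leukocyte markers. The mean of the leukocyte markers was 2.01, 0.45 and -0.67 log2 CPM in the 4-week-old mice and -0.04, 0.99 and 2.53 at 6 weeks, so these ages overlapped, while the replication means did not. The 4-week-old mouse with the fewest leukocyte transcripts had the highest replication mean (3.59), and the 6-week-old mouse with the most leukocyte transcripts of either age had a replication mean of 2.86, below all 4-week-old mice. Among the 6-week-old mice both lists ran in the same order. The mouse richest in leukocyte transcripts had the highest level in 25 of the 37 genes, with no share of all genes computed. With the leukocyte mean of each mouse as a covariate, all 37 genes remained lower at 6 weeks, with a median of -0.80. That fit rests on slopes within ages of 3 mice each, and the part of leukocytes in the early difference was not tested. In that fit 12 genes were called (edgeR, adjusted p under 0.05), Mcm2, Mcm3, Mcm4, Mcm5, Mcm6, Cdt1, Gins1, Pole, Pcna, Dscc1, Rrm1 and Chaf1a, where 130 of all 16554 genes were called lower, and 27 were DEGs at the study's threshold, where 2.68% of all genes were lower at it.

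Within the later ages the lists shared their lowest mouse at 8 and 10 weeks, while at 12 weeks 2 mice tied for the lowest leukocyte mean. At 8 weeks the mouse with the low replication mean (2.34) had a leukocyte mean of 1.88, within the range of the younger mice, and the others, at 2.94 and 3.12, had 4.04 and 4.63. At 10 weeks the mouse with the lowest replication mean (3.21) had a leukocyte mean of 4.83 against 6.05 and 5.66. At 12 weeks the lowest replication mean (3.36) was that of replicate 2. Its leukocyte mean of 5.67 equalled that of replicate 1 to 2 decimals, and its summed leukocyte level lay between those of the other 2 mice. Within ages, in the covariate fit, 36 of the 37 slopes on the leukocyte mean were above 0, with a median of 0.14 log2 units per unit of the leukocyte mean and -0.0013 over all genes. Of these slopes, 2 passed the adjusted test in edgeR, those of Mcm6 (0.22, adjusted p 0.0214) and Orc6 (-0.09, adjusted p 0.0483), where 10.2% of all genes did.

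With the covariate, nearly every gene in the table lost its call in the later comparisons, the replication genes among them. At 10 against 8 weeks the median was 0.55, 11 genes were upregulated at the study's threshold (1.9% of all genes) and 0 were called after adjustment, as were 0 of all genes. At 12 against 6 weeks the median was 0.13, 2 genes, Gins1 (1.20) and Pold1 (0.59), passed the study's threshold upward (2.94% of all genes) and 0 were called, as were 0 of all genes against 9127 without the covariate. At 12 against 4 weeks 34 genes were lower, with a median of -0.74, 8 were downregulated at the study's threshold (4.74% of all genes) and 0 were called, with 3 of all genes against 8858. The leukocyte means of the 12-week-old mice (5.67 to 6.03) lay far from those at 4 and 6 weeks, so in these comparisons age and leukocyte content cannot be told apart, and this fit extends the within-age slopes beyond the values that those younger mice held.

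**Figure D5:**
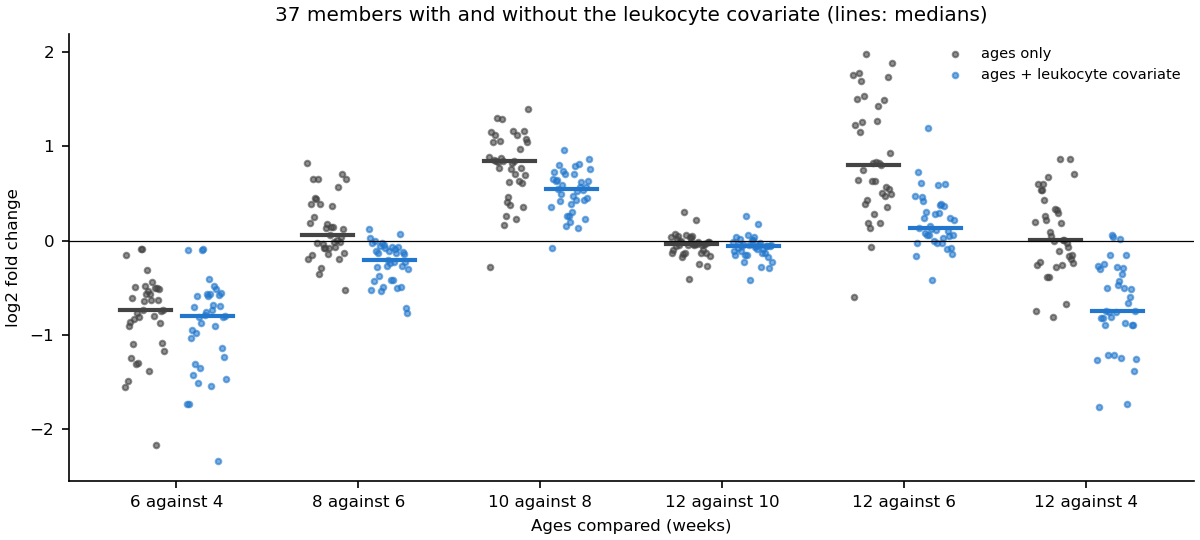
Fitted log2 fold changes of the 37 genes for 6 pairs of ages, from the fit of ages alone (gray) and with the leukocyte mean of each mouse as a covariate (blue), with medians as lines. The medians at 6 against 4 weeks are close (-0.74 and -0.80), while at 12 against 6 weeks the median is 0.80 without and 0.13 with the covariate.

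Markers of other cell types also differed between the libraries. B cell markers summed to 5.32 to 9.45 CPM at 4 weeks and 304 to 460 at 12 weeks, T cell markers to 2.50 to 34.4 and 334 to 460, and markers of lymph node stroma and venules, led by Glycam1 at 12 weeks, to 3.66 to 12.7 and 366 to 585. Mesenchymal markers, led by Col3a1, went from 304 to 527 CPM at 4 weeks to 1199 to 1913 at 12 weeks. The 6 germinal centre B cell genes, led by Bcl6 at 12 weeks, summed to 11.3 to 14.3 CPM at 4 weeks and 27.9 to 37.7 at 12 weeks. Intestinal epithelial genes, a dividing tissue, summed to 440.5 CPM in 12-week replicate 1 and to 49.7 to 148 CPM in the other mice. The highest of those was 6-week replicate 2, next to 106 and 109.7 in its age mates, and it shared with 12-week replicate 1 that none of the 12 genes was at 0. Only 3 of the intestinal genes passed the count filter. At 12 against 6 weeks 2 of them were lower, 1 of these called, and 1 was higher. Calls among replication genes at 12 against 6 weeks numbered 22 without 12-week replicate 1 and 24 without 6-week replicate 2, and without other mice they were as few, at 22 without 6-week replicate 1 and 23 without 12-week replicate 3. Of all genes 8435, 7534, 8123 and 7326 were called in these 4 fits. Among 7 ductal markers 3 were called higher at 10 against 8 weeks (median 0.67), and 4 were called higher and 2 lower at 12 against 6 weeks (median 0.998). Among 7 endothelial markers 1 was called lower at 10 against 8 weeks, and 4 were called higher and 1 lower at 12 against 6 weeks (median 0.32). The shares of all genes were 8.4% higher and 8.37% lower at 10 against 8 weeks. At 12 against 6 weeks they were 27% and 28.1%. Acinar genes, led by Ctrb1, spanned 1229 to 10350 CPM at 4 weeks and 3128 to 12970 at 12 weeks. The part of the acinar, ductal, endothelial, intestinal, B cell, T cell, stromal and mesenchymal genes in the results was not tested.

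Further replication genes, 45 in all, were counted beside the 37. At 6 against 4 weeks 40 were lower and 5 higher, with a median of -0.33, and 11 were DEGs, all lower, where 1.75% of all genes were. Wdhd1, which couples helicase and polymerase alpha, fell by 0.83 (adjusted p 0.0343) from 12.2 ± 0.95 to 6.90 ± 0.87 CPM (SD, n = 3) and was the only one called by edgeR. The largest decreases were those of Clspn, a checkpoint mediator (-1.33), Recql4, a helicase (-1.10), and Gmnn, the inhibitor of Cdt1 (-1.10). At 12 against 6 weeks 27 of the 45 were called higher and 3 lower, where 27% and 28.1% of all genes were, with a median of 0.48. Samhd1, which degrades nucleotides and is abundant in myeloid cells, rose most, from 38.5 ± 12.0 to 206 ± 42.1 CPM (2.42, adjusted p 0.000899), followed by the salvage kinase Tk1 (1.70, adjusted p 0.0047) and the origin factor Ticrr (1.35, adjusted p 0.0107). Unlike Wdhd1, Samhd1 gave 0.04 at 6 against 4 weeks (adjusted p 0.999, edgeR).

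A list of 24 mitosis genes, which act after replication, was also lower at 6 weeks and higher later. Its median was -1.50 at 6 against 4 weeks, with 23 genes downregulated at the study's threshold (1.75% of all genes). After adjustment 1 was called lower (Cenpf, a kinetochore protein), where 0.0846% of all genes were. At 12 against 6 weeks the median was 1.24, with 21 called higher (27% of all genes). At 12 against 4 weeks the mitosis genes had a median of -0.30. In edgeR 3 were called lower (Cenpf, Prc1 and Ttk), where 27.2% of all genes were, and 0 higher, where 26.3% were. An unadjusted p under 0.05 upward was reached by 0 of them, where 28.7% of all genes reached it.

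For 9 of the 37 genes another gene overlaps the locus in the annotation, so that reads of the 2 cannot always be told apart. Overlapping genes with few counts relative to the replication gene were left out of this number. Besides Orc6 and Vps35, these were Orc1, Cdt1, Mcm7, Gins2, Rfc4, Rfc5, Fen1 and Chaf1a. The largest imbalance was at Rfc4, which shares 194 bases with Eif4a2 on the other strand, with 2080 counts over the series against 254933. Cdt1 shares 5540 bases with Gm20388 on the same strand, with 3070 counts against 645.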

How the data were processed

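Islet RNA from 15 mice was sequenced in paired 150-base reads. The authors mapped the reads to mm10 and deposited a table of raw counts per gene, with TPM, RPKM and CPM, made in CLC Genomics Workbench; the strand setting of the counting is not given in the sources used here. The deposited counts were analysed with edgeR 4.0.16 (R 4.3.3): filterByExpr kept 16554 of 48709 genes, and TMM factors and a quasi-likelihood fit with 1 mean per age gave log2 fold changes, SE and Benjamini-Hochberg adjusted p over all genes. TMM-scaled CPM were computed here, with a prior count of 2 on the log2 scale. The deposited TPM were used for levels between genes, and 30 RPKM and CPM columns were not used. A count of 3 corresponds to 0.0754 to 0.128 CPM. The study's DEG threshold was applied to the unadjusted p. Alternatives were DESeq2 size factors, library totals, no filter, the 2 ages alone, the edgeR exact test, DESeq2 1.42.0, leaving out each mouse, replicate number as a block and a leukocyte covariate (mean log2 CPM of 22 markers; Itgam was not analysed here). No pair of libraries was identical. The fits were tested on simulated data, and no result of that test is given or relied on here.

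The 37 genes and all other lists were chosen with earlier results of these data known. Full values are given for the genes of each role with the largest and smallest change at 6 against 4 weeks and the largest at 12 against 6 weeks, and for genes called at 6 against 4 weeks; other replication genes are named by the 3 largest decreases and increases in those comparisons and by calls at 6 against 4 weeks. Positions are those of the count table (GRCm38).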

Additional observations from a re-analysis of the deposited data

How the results depend on the processing

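The lower level at 6 than at 4 weeks kept its direction in all 37 genes under each scaling, filter, test and covariate tried; without 6-week replicate 2 Gins3 turned to 0.0424 (range over left-out mice -0.184 to 0.0424). The number of adjusted calls at 6 against 4 weeks (1) was 0 with DESeq2 size factors, with library totals and without the filter, 12 with the leukocyte covariate, 15 with DESeq2, 15 with the 2 ages alone and 24 with the edgeR exact test, and 0 without any single mouse. At 8 against 6 weeks it ranged from 0 to 1 over left-out mice. At 10 against 8 weeks (23) it was 31 with DESeq2, 25 with DESeq2 size factors, 25 with library totals, 0 with the covariate, 0 with the 2 ages alone and 1 with the exact test, and ranged from 0 to 33 over left-out mice, while 11 genes passed the study's threshold with the covariate. At 12 against 6 weeks the median was 1.05 with library totals and 0.13 with the covariate, which left 0 adjusted calls and 2 at the study's threshold. At 12 against 4 weeks the calls (6) numbered 12 with library totals, 0 with the covariate, 14 with the 2 ages alone and 14 with the exact test, and 2 to 4 over left-out mice; the median was 0.25 with library totals and -0.74 with the covariate. The change over all ages was called in 8 genes with the covariate, which called 77 of all genes. Under library totals the 4-week mean was 3.39 log2 CPM. With 2 words instead of 4 the promoter share was 40%, against 0.929% of all genes, 7.89% of the other replication genes and 5% of the mitosis genes. At 12 against 6 weeks Mcm8 turned to 0.17 under library totals, and with the covariate Cdc6 (-0.0301), Pola1 (-0.00579), Prim2 (-0.0225), Rfc3 (-0.0304), Fen1 (-0.0924), Tyms (-0.0757) and Chaf1a (-0.14) reversed. At 12 against 4 weeks the covariate turned 17 of the 20 higher genes lower, among them the called Cdt1 (-0.30), Mcm4 (-0.25), Gins1 (-0.16) and Pole2 (-0.36). The causes were not tested.

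Replicate numbers were not taken to pair the mice, since in none of the 6 comparisons was the correlation of deviations over 0.1 for all 3 numbers: it was -0.504, -0.0499 and -0.463 at 6 against 4 weeks, 0.509, -0.118 and 0.489 at 8 against 6 weeks and -0.397, 0.0889 and -0.437 at 10 against 8 weeks. A replicate block in the fit left 0 of the 37 genes and 5 of all genes called at 6 against 4 weeks, and 0 of either at 10 against 8 weeks.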

Other observations

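Among 16 regulators of the G1/S transition, the E2F factors did not share 1 course. E2f1, an activator of S phase genes, declined with age, from 28.0 ± 1.70 CPM at 4 weeks to 21.6 ± 3.03 at 6, 18.5 ± 2.42 at 8, 16.6 ± 1.68 at 10 and 14.8 ± 3.20 at 12 weeks (SD, n = 3), and was called lower at 12 against 4 weeks (-0.93, adjusted p 0.000594, edgeR). E2f2, a related activator, stood at 13.1 ± 1.76 CPM at 4 weeks, 12.0 ± 0.923 at 6 and 21.5 ± 3 at 12 weeks and was called higher (0.71, adjusted p 0.0154). The cyclin Ccne2 and the kinase Cdk2 also diverged. The other cyclins, Ccne1 and Ccna2, were not called at 12 against 4 weeks (0.04 and -0.28, edgeR). At 12 against 6 weeks both were called higher (0.74 and 1.25, adjusted p 0.0227 and 0.00752, edgeR), where 27% of all genes were. Ccne2, a cyclin E, stood at 13.3 ± 1.05 CPM at 4 weeks, 8.20 ± 0.838 at 6 and 7.23 ± 0.804 at 12 weeks and was lower at 12 than at 4 weeks (-0.88, adjusted p 0.000357), while its kinase Cdk2 stood at 7.50 ± 1.28, 4.22 ± 0.876 and 13.9 ± 1.48 CPM and was higher (0.89, adjusted p 0.00815). In all, 5 of the 16 were called lower (E2f1, E2f6, E2f7, Ccne2 and Cdc25a), where 27.2% of all genes were, and 5 higher (E2f2, E2f4, Cdk2, Rbl1 and Rbl2), where 26.3% were. Both counts are near the shares of all genes, and differences between these regulators were not tested. Library totals shift the median of all genes in this comparison by 0.245, and the values of E2f4 (0.24) and E2f6 (-0.23) are smaller in size than that shift. At 6 against 4 weeks 0 of the 16 were called by edgeR, 8 were lower at an unadjusted p under 0.05 (4.87% of all genes) and 5 were downregulated at the study's threshold (1.75%).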
